A study of Rattus norvegicus with 8 samples.

Results

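In liver RNA from 4 rats on a high phosphorus (HP) diet and 4 on a control diet, expression was examined for 10 marker genes of Kupffer cells and macrophages: Cd163, Marco, Clec4f, Csf1r, Cd68, Cd5l, Vsig4, C1qa, C1qb and C1qc. All animals were male Wistar rats of 8 weeks. The HP diet held 1.2% phosphorus and the control diet 0.3%, both on an AIN-93G base, and each was given for 24 days after acclimatization. Total RNA of whole liver was hybridised to 1 Affymetrix GeneChip array per rat, so that each value comes from its own animal, and precision is limited by having 4 arrays a diet. The members were taken from a list of known markers, which was chosen with earlier results of these data known. A probe set (the group of probes that reports 1 transcript) was counted for a gene when its annotation gave that gene symbol alone.

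Of the 10 markers, 8 had such a probe set, 9 probe sets in all, among 14217 genes and 31042 probe sets on the array. Marco, a scavenger receptor that binds bacteria and particles, and Vsig4, a receptor for fragments of complement C3, had none under their symbol and were not analysed here. The values, in log2 units, come from FARMS, which keeps what the probes of a probe set show in common and flattens a probe set to nearly 1 value where they show nothing in common. A probe set was therefore called measured when its highest and lowest values over the 8 rats were at least 0.05 apart (log2). This left 4155 probe sets, of which those with a single symbol named 2808 genes, and 7 of the 10 markers: Cd163, Clec4f, Csf1r, Cd68, Cd5l, C1qa and C1qc. No member lay near that limit, since the measured members spanned at least 0.369 and the other member probe sets at most 0.000655, where the nearest probe sets on either side of the limit spanned 0.0502 and 0.0495. A log2 value was not compared between probe sets, because each has its own probes.

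Kupffer cells are the resident macrophages of the liver. They lie in the sinusoids, where they take up bacteria, aged red blood cells and debris from portal blood, and they depend on signals through the receptor Csf1r. The transcription factor PU.1, encoded by Spi1, drives the macrophage programme, and factors of the Maf family take part in that of resident macrophages. In RNA of whole liver, fewer macrophages and less marker RNA per macrophage cannot be told apart.

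The promoters of the markers, measured or not, were read for letters that these factors bind. The 250 bases before the start of 9 members were available from RefSeq (C1qc was not among them). The letters GAGGAA of PU.1 sites, on either strand, occurred in 5 of the 9, against 23.3% of the 33469 promoters of that length in the table. The letters TGCTGA of Maf sites, on either strand, occurred in 3 of the 9, against 15.1%. Of the 6 measured markers among the 9, 3 held GAGGAA and 2 held TGCTGA, and the other matches were in Marco and C1qb. No match of one overlapped a match of the other. In the promoters below, given 5′ to 3′ along the gene, capitals mark both kinds of letters, with TTCCTC and TCAGCA as their other strand. Cd5l is shown because it is the marker that differed most between the diets, Csf1r and Cd68 for their GAGGAA matches, and C1qa for its 3 TGCTGA matches.
Cd5l promoter, GRCr8 chr2:175088665-175088914, plus strand: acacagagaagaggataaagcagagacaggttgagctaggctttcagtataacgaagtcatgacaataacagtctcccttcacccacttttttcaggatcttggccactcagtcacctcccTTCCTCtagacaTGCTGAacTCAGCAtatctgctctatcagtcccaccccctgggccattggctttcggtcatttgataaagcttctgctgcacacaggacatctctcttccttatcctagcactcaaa
Csf1r promoter, GRCr8 chr18:56834129-56834378, plus strand: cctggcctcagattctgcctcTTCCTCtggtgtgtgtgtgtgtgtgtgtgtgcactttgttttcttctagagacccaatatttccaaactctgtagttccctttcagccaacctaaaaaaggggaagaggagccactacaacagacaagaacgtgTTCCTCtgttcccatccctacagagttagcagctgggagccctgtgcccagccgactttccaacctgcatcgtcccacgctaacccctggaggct
Cd68 promoter, GRCr8 chr10:54882442-54882691, minus strand: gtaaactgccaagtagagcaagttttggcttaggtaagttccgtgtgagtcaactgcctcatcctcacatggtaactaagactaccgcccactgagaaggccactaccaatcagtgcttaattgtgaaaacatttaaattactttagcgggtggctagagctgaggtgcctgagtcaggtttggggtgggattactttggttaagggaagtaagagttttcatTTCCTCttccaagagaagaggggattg
C1qa promoter, GRCr8 chr5:154419934-154420183, minus strand: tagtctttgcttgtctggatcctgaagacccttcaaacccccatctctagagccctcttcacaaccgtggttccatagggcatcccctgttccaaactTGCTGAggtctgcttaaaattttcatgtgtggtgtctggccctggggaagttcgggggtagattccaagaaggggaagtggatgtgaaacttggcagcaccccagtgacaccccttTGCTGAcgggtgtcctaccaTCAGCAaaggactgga
The Cd5l stretch holds a GAGGAA match that begins 129 bases before the start, and TGCTGA matches at 117 and 109 bases that face each other. Csf1r has GAGGAA matches at 229 and 95 bases and Cd68 has one at 27 bases. A match is a run of letters and does not show that a factor binds there.

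Cd5l was lower on the HP diet, and it was the only one of the 7 measured markers that the rank products method called in either direction. Its log2 value was 0.33 lower, 0.798 times the control level (95% interval of limma from 0.696 to 0.914). The differences of the other 6 ran from -0.20 for Cd163 to -0.04 for Clec4f and C1qa, and none of them passed. By rank products, the method of the study, with a false discovery rate (FDR) under 0.05, 1 of the 7 was thus lower and 0 were higher. Among all 4155 measured probe sets, 12.1% were lower and 8.52% higher by the same rule (1.62% and 1.14% of all 31099 rows ranked), so that 1 of 7 is close to the general share. In simulated data, drawn independently for each probe set, rank products also called many probe sets that had no difference. Its FDR may thus understate false calls here too, for Cd5l and for every other gene below. With limma, a linear model that uses the spread between rats, 0 of the 7 markers and 0% of the 4155 probe sets passed an adjusted p under 0.05, and 1 of the 7, Cd5l, had an unadjusted p under 0.05 (lower), where 7.29% of all measured probe sets were lower and 5.37% higher at that p.

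Cd5l encodes a protein that macrophages secrete and that circulates bound to immunoglobulin M. Its probe set 1385635_at had log2 values of 9.82, 9.84, 9.70 and 9.61 in HP rats 1 to 4, against 10.19, 10.18, 9.86 and 10.05 in control rats 1 to 4. Every HP rat lay below every control rat, although HP rat 2 and control rat 3 were nearly level. A separation of this kind, with all HP rats below all control rats, was found in 4.07% of the measured probe sets and in 1 of the 7 markers, and the opposite separation in 3.1% and in 0 of the 7. The means were 9.74 ± 0.11 (SD, n = 4) on the HP diet and 10.07 ± 0.15 (SD, n = 4) on the control diet. The difference was -0.33 (standard error 0.09), with an FDR of 0.00865 by rank products and an adjusted p of 0.245 by limma. The rank products call was lost without control rat 2 and when only the measured probe sets were ranked. The other probe set of Cd5l, 1386843_at, stayed at 6.27 in all 8 rats, almost constant, and gives no measure of the gene.

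The scavenger receptor Cd163, which takes up complexes of haemoglobin and haptoglobin, had the next largest difference. Its log2 values were 7.92, 8.34, 8.10 and 7.91 in the HP rats and 8.53, 8.27, 7.98 and 8.29 in the control rats. The diets overlapped, since HP rat 2 lay above 3 of the control rats and control rat 3 lay below HP rats 2 and 3. The means were 8.07 ± 0.20 (SD, n = 4) on the HP diet and 8.27 ± 0.23 (SD, n = 4) on the control diet, and the difference of -0.20 (standard error 0.14) did not pass (FDR 0.0569 by rank products, adjusted p = 0.530 by limma). Its 95% interval, from -0.51 to 0.11, allows a lower as well as a slightly higher level. The difference was -0.11 without control rat 1 and -0.10 with array weights, against -0.29 without control rat 3 or without HP rat 2, where rank products called Cd163 lower in the last case.

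Csf1r, the receptor for colony stimulating factor 1 that macrophages need for survival, had log2 values of 8.04, 8.22, 8.07 and 8.09 in the HP rats and 8.44, 8.15, 8.02 and 8.40 in the control rats. Control rats 1 and 4 stood above all HP rats, and control rats 2 and 3 lay among them or below. The mean difference was -0.15 (standard error 0.10, 95% interval from -0.38 to 0.08), and it did not pass (FDR 0.145 by rank products, adjusted p = 0.531 by limma).

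Cd68, a glycoprotein of the endosomes and lysosomes of phagocytes, gave a picture much like that of Csf1r. Its log2 values were 7.99, 8.09, 7.90 and 7.81 in the HP rats and 8.25, 7.97, 7.93 and 8.22 in the control rats. Again control rats 1 and 4 were highest and the other control rats lay within the range of the HP rats. The mean difference was -0.15 (standard error 0.10, 95% interval from -0.38 to 0.09), which did not pass by rank products (FDR 0.118) or by limma (adjusted p = 0.537).

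Clec4f, a C-type lectin that in rodents is made by Kupffer cells, is the member most specific to them. It had log2 values of 10.33, 10.42, 10.35 and 10.27 in the HP rats and 10.61, 10.37, 10.11 and 10.45 in the control rats. The HP rats lay close together inside the range of the control rats, whose rats 1 and 3 were the highest and the lowest of all 8. The SD was 0.06 on the HP diet and 0.21 on the control diet (n = 4 each). The mean difference was -0.04 (standard error 0.10, 95% interval from -0.26 to 0.18; FDR 0.305 by rank products for the lower direction, adjusted p = 0.873 by limma).

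C1qa, C1qb and C1qc encode the 3 chains of C1q, the molecule that starts the classical complement pathway, and macrophages are their main source. The 3 genes neighbour each other in the RefSeq annotation of the rat genome. C1qa had log2 values of 9.68, 9.81, 9.64 and 9.58 in the HP rats and 9.89, 9.71, 9.52 and 9.75 in the control rats, a mean difference of -0.04 (standard error 0.09, 95% interval from -0.23 to 0.15). C1qc had values of 8.79, 8.89, 8.70 and 8.62 in the HP rats and 9.01, 8.80, 8.70 and 8.87 in the control rats, a mean difference of -0.09 (standard error 0.09, 95% interval from -0.29 to 0.10). For both genes the diets overlapped and control rat 1 was the highest (FDR 0.488 and 0.267 by rank products for the lower direction, adjusted p = 0.869 and 0.641 by limma). The probe set of C1qb, 1370215_at, stayed at 8.62 in all 8 rats, with a span of 0.000655, while its partner chains spanned 0.369 and 0.384. C1qb was therefore not measured, which says nothing of whether its level changed.

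**Figure D1:**
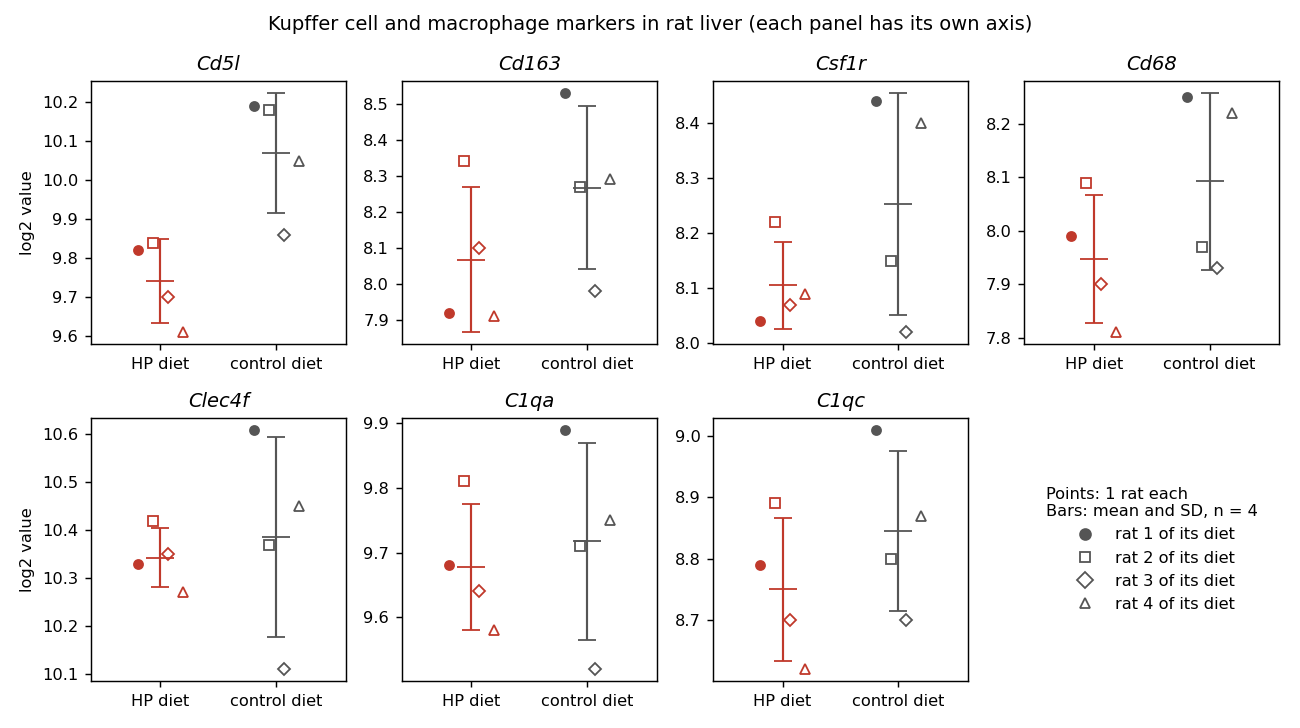
Log2 values of the 7 measured markers in each rat (vertical axes, 1 panel a gene, each on its own scale), for the HP diet (red) and the control diet (grey), with symbols for rats 1 to 4 of a diet and bars for the mean and SD of 4 rats. The diets are apart for Cd5l, where the highest HP rat is at 9.84 and the lowest control rat at 9.86, and they overlap for the other 6, with control rat 1 at the top of every panel.

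As a list, the 7 measured markers had a median difference of -0.15 (log2), against -0.022 over all measured probe sets. The mean of all 7 was lower on the HP diet, where 56.5% of all measured probe sets had a lower mean, but the differences of Clec4f and C1qa turned to 0.03 and 0.02 without control rat 1 and to 0.03 and 0.01 with array weights. Without control rat 1 the median of the list was -0.09, and without control rat 3 it was -0.20. The members share their rats and moved together, so that their 7 directions do not count as 7 observations.

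**Figure D2:**
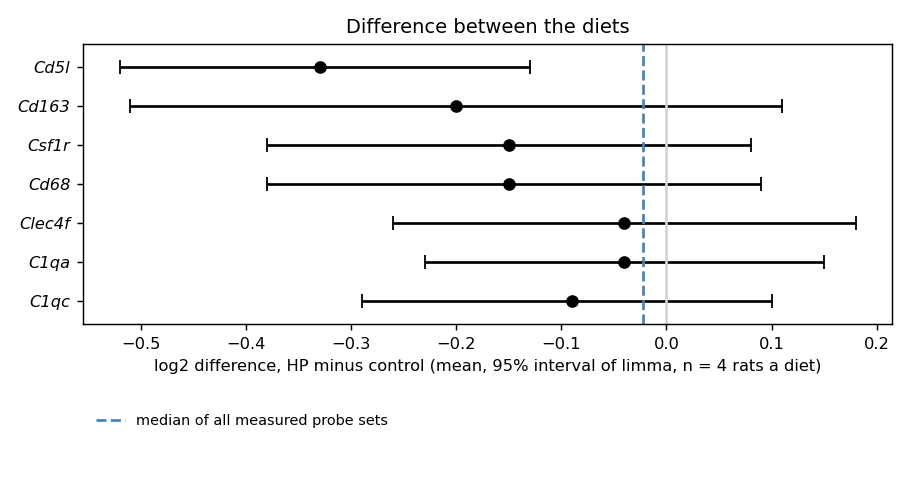
Difference between the diets for the 7 measured markers (horizontal axis, log2, HP minus control), with the mean as a point and the 95% interval of limma as a bar (n = 4 rats a diet). The interval of Cd5l runs from -0.52 to -0.13 and those of the other 6 include 0, and the dashed line marks the median of the 4155 measured probe sets, -0.022.

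The markers rose and fell together from rat to rat over the 8 rats, also after the mean of each diet was subtracted. Over the 8 rats, Pearson's r between 2 measured markers ran from 0.581 to 0.948 over the 21 pairs, with a median of 0.840, and Spearman's rho ran from 0.571 to 0.976 with a median of 0.833. Between all pairs of the 2808 measured genes the median r was 0.00703, and 2.28% of them were above 0.8, against 66.7% of the marker pairs. In an exact permutation test over all pairings of the 8 rats, two-sided and adjusted over the 21 pairs, 17 pairs passed an adjusted p under 0.05 by r and 14 by rho. After the mean of each diet was subtracted, the median r was 0.865 (from 0.554 to 0.966) and 16 pairs passed in an exact permutation test within the diets. That test pools both diets. In the 4 rats of a single diet, where no test was made, the lowest r was 0.413 and the median 0.874 in HP rats. In control rats they were 0.486 and 0.909. The 4 pairs that did not pass by r over the 8 rats were all pairs of Cd5l, with Clec4f, Csf1r, Cd68 and C1qa.

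The tightest pairs were Clec4f with C1qa (r = 0.948, rho = 0.952, exact permutation p = 0.000546 and 0.00114, adjusted p = 0.00469 and 0.00781) and Cd68 with C1qc (r = 0.946, rho = 0.929, exact permutation p = 0.000397 and 0.00223, adjusted p = 0.00469 and 0.00781). C1qa and C1qc, 2 chains of the same molecule, had r = 0.941 and rho = 0.976 (exact permutation p = 0.000769 and 0.000397, adjusted p = 0.00469 and 0.00781). The loosest was Clec4f with Cd5l (r = 0.581, rho = 0.643, exact permutation p = 0.129 and 0.0962, adjusted p = 0.129 and 0.106), which came to r = 0.793 after the diet means were subtracted. Without the 2 rats farthest from the median of the first gene of a pair, r was 0.878 for Clec4f with C1qa, 0.982 for Cd68 with C1qc, 0.971 for C1qa with C1qc and 0.642 for Clec4f with Cd5l, and its median over the 21 pairs was 0.766. Much of the count by r rests on 1 animal. Without control rat 1 the median r was 0.714 and 2 pairs passed by r, Clec4f with C1qa (r = 0.909) and Cd68 with C1qc (r = 0.917). C1qa with C1qc was at the limit (exact permutation test, adjusted p = 0.05). By rho these 2 pairs and C1qa with C1qc passed, as did Cd163 with C1qc, Clec4f with Csf1r and Clec4f with C1qc (exact permutation test, adjusted p = 0.0431 each).

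**Figure D3:**
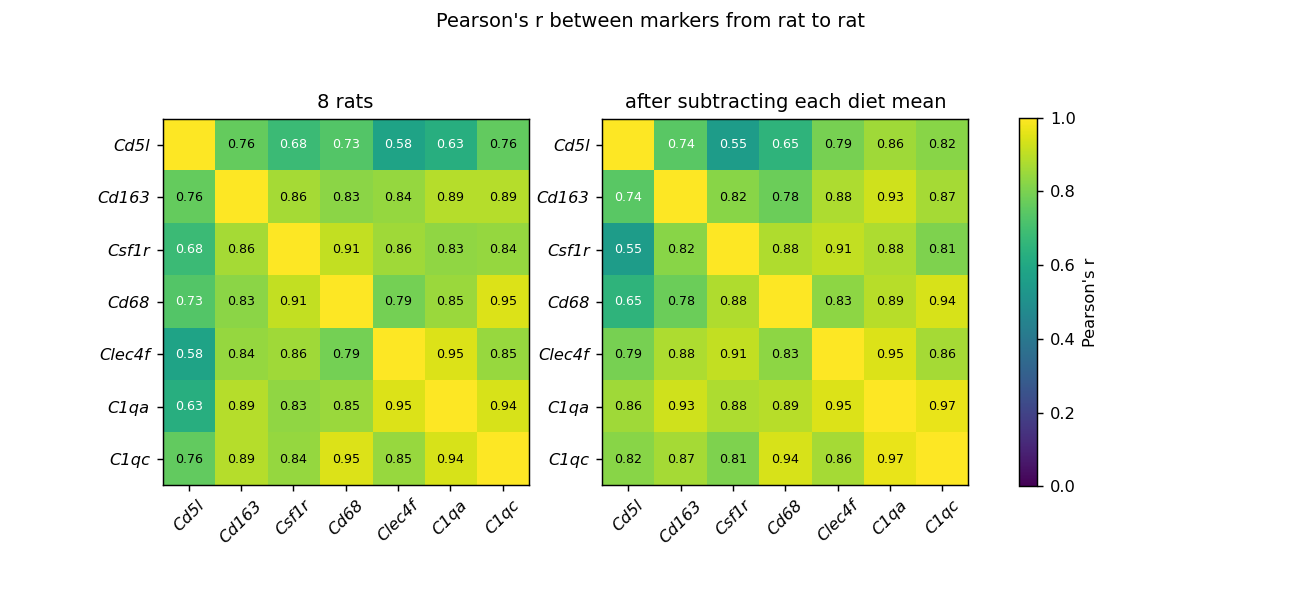
Pearson's r between each pair of the 7 measured markers (colour scale from 0 to 1, value printed in each cell), over the 8 rats on the left and after subtracting the mean of each diet on the right. The 21 pairs run from 0.581 to 0.948 on the left and from 0.554 to 0.966 on the right, and the row of Cd5l holds the lowest values.

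Control rat 1 had the highest value of the 8 rats for all 7 measured markers, where it was the highest for 16.6% of all measured probe sets. With the 8-rat mean of each gene set to 0, the 7 markers averaged -0.08, 0.07, -0.10 and -0.18 (log2) in HP rats 1 to 4, against 0.26, 0.04, -0.14 and 0.13 in control rats 1 to 4. Control rat 3 and HP rat 4 were thus at the low end, and HP rat 4 was the lowest for 4 markers and control rat 3 for the other 3. All arrays had a median of 6.65, and the same average over all measured probe sets stayed between -0.022 and 0.025. Each diet held rats with high and low levels of the markers, and the mean of HP rat 2 lay above that of control rats 2 and 3. Relative to the mean of the other 6 markers, Cd5l was at -0.01, -0.16, -0.13 and -0.14 in the HP rats and at 0.03, 0.27, 0.12 and 0.01 in the control rats, a description made after its values were seen.

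**Figure D4:**
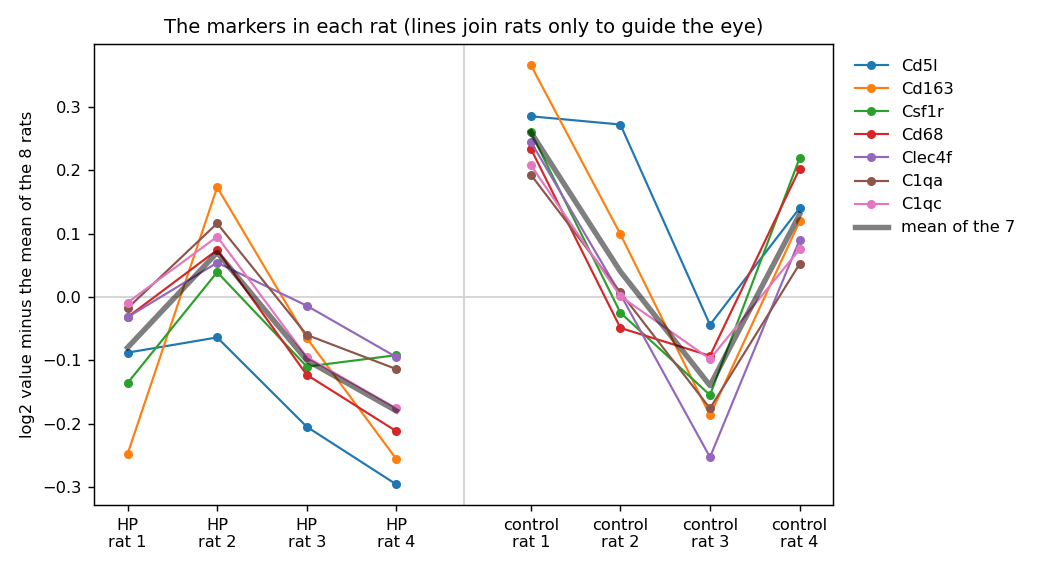
Values of the 7 measured markers in each rat (vertical axis, log2 value minus the gene's mean over the 8 rats), with HP rats 1 to 4 on the left, control rats 1 to 4 on the right, a coloured line for each gene and a thick line for their mean. The mean runs from -0.18 in HP rat 4 to 0.26 in control rat 1, and Cd5l departs most from the others in control rat 2.

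The difference in signal between the 3′ and 5′ ends of control transcripts, a sign of RNA quality, was 2.04 to 2.10 (log2) in HP rats and 1.89 to 2.16 in control rats for β-actin, and 0.81 to 0.97 in HP rats and 0.95 to 0.98 in control rats for GAPDH. Control rat 1 (1.99 and 0.95), the highest for all 7 markers, lay inside these ranges. HP rat 4, the lowest for 4 markers, had the lowest GAPDH value, 0.81. Control rat 3, the lowest for the other 3, had the lowest β-actin value, 1.89, and control rat 4, among the top 3 for all 7 markers, had the highest of both, 2.16 and 0.98. Whether RNA quality had a part in the marker levels was not tested. Every pair of arrays had an r of at least 0.968 across the measured probe sets.

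Other genes of macrophages were compared from a list of 37, of which 12 were measured. Rank products called 0 of the 12 lower and 0 higher, limma called 0, and 0 had an unadjusted p under 0.05 by limma. Among all 4155 measured probe sets, 12.1% were lower and 8.52% higher by rank products, and 0% passed by limma. At the unadjusted p, 7.29% were lower and 5.37% higher. The median difference of the 12 was 0.01, with the largest in Fcgr2b, an inhibitory receptor for immunoglobulin G that is also 1 of the 5 measured markers of sinusoidal endothelial cells (0.14, standard error 0.09, r of -0.37 with the mean of the 7 markers), and Mertk, a receptor for dying cells (0.13, standard error 0.13). Relative to the mean of the 8 rats the 12 averaged from -0.08 to 0.04 in HP rats and from -0.14 to 0.16 in control rats, with control rat 1 at 0.16 and control rat 3 at -0.14. Of the 12, 5 had an r above 0.75 with the mean of the 7 markers over the 8 rats: Ctss (0.97), Cybb (0.93), Fcer1g (0.90), Adgre1 (0.81) and Aif1 (0.79), where 2.21% of the other 2801 measured genes did. Lyz2, the lysozyme of myeloid cells, had -0.42.

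The 5 genes most like the mean of the 7 markers over the 8 rats, among the other 2801 measured genes, were Ctss (r = 0.970), a lysosomal protease, Prkcb (0.946), a protein kinase C, Itgal (0.936), a chain of a leukocyte integrin, Cybb (0.926), the catalytic chain of the phagocyte NADPH oxidase, and Ms4a6bl1 (0.924). They were chosen for this likeness, which is given with no test. The values of Ctss were 9.45, 9.66, 9.50 and 9.39 in the HP rats and 9.75, 9.61, 9.39 and 9.65 in the control rats, with control rat 1 and HP rat 2 at the top. Their differences between the diets ran from -0.15 for Itgal to -0.08 for Cybb and did not pass by limma (adjusted p from 0.586 to 0.711) or rank products.

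Beside the counts of the next lists, 12.1% of all measured probe sets were lower and 8.52% higher by rank products. At an unadjusted p under 0.05 by limma, 7.29% were lower and 5.37% higher. Among the lineage factors of macrophages, 6 were measured (Maf, Nr1h3, Id3, Cebpa, Cebpb and Zeb2), and 0 passed by rank products or limma, also at an unadjusted p under 0.05. The largest differences were -0.12 for Cebpb (standard error 0.17) and 0.08 for Maf (standard error 0.08), and the r of the 6 with the mean of the markers ran from -0.23 to 0.44. Spi1 had no probe set under its symbol alone. A list of Csf1r ligands and growth factors held 6 genes: the ligands Csf1 and Il34, the growth factors Csf2 and Tgfb1, and the receptor chains Csf2ra and Csf2rb. All were almost constant on the array, so that Csf1 and Il34 give no measure of the supply of the signal through Csf1r. Of 15 cytokines and mediators, 3 were measured and 0 passed by either method, also at an unadjusted p under 0.05 by limma, and Il1b, Tnf and Il6 were almost constant. Ptgs1, the constitutive cyclooxygenase, and Ccl9, a chemokine, had the largest differences, -0.08 (standard error 0.10) and -0.05 (standard error 0.07). The r with the mean of the markers was 0.90 for Ptgs1, 0.82 for Ccl6, the other measured gene, and -0.44 for Ccl9. Thus 2 of the 3 were above 0.75, where 2.21% of the other measured genes were.

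Genes that act with the markers were read next. Each count of calls is to be set beside the share among all 4155 measured probe sets, 12.1% lower and 8.52% higher by rank products. Of 6 measured genes of the classical complement pathway, which C1q starts, rank products called 2 higher and 0 lower: C4bpb, the β chain of the C4b-binding protein (0.18, standard error 0.08, FDR 0.0407), and Cr1l, a regulator of complement on cell surfaces (0.16, standard error 0.05, FDR 0.0345), with an adjusted p of 0.388 and 0.332 by limma. By limma, 3 of the 6 complement genes had an unadjusted p under 0.05, all higher, where 5.37% of all measured probe sets were higher at that p. These were C4bpb, Cr1l and C4bpa (0.08, standard error 0.03, FDR 0.0734 by rank products). In Cr1l and C4bpa every HP rat lay above every control rat, as in 3.1% of all measured probe sets. Of 5 measured genes listed with haemoglobin clearance, the task of Cd163, rank products called 1 lower and 1 higher. Hmox1, which opens the haem ring, was at 8.08 ± 0.09 (log2, SD, n = 4) in HP rats and 8.26 ± 0.13 (SD, n = 4) in control rats (FDR 0.0396, adjusted p = 0.415 by limma), and Hamp, the iron hormone hepcidin of hepatocytes, at 10.55 ± 0.20 in HP rats and 9.99 ± 0.70 in control rats (FDR 0.00688, adjusted p = 0.454 by limma). The Hamp values of control rats 1 to 4 were 10.71, 9.49, 9.29 and 10.45. Control rats 1 and 4 thus lay within the HP rats (10.35 to 10.82), and only control rats 2 and 3 lay below them. The 2 measured scavenger receptors were Mrc1, which did not pass (0.08, standard error 0.05), and Stab2, an endothelial receptor for hyaluronan, which rank products called higher (0.23, standard error 0.07, FDR 0.0205, adjusted p = 0.320 by limma).

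Markers of the other cells of liver and blood were read beside these results, and their part in them was not tested. For their counts too, the share of all measured probe sets called by rank products was 12.1% lower and 8.52% higher. Of the 5 measured markers of sinusoidal endothelial cells, 2 were higher by rank products, Stab2 and Kdr, a receptor for vascular growth factors (0.26, standard error 0.06, FDR 0.0110, adjusted p = 0.217 by limma), and the list averaged 0.01 to 0.15 in HP rats and -0.15 to 0.01 in control rats. Its r with the mean of the Kupffer cell markers had a median of -0.32. Stab2 and Kdr also had an unadjusted p under 0.05 by limma, and in Kdr every HP rat lay above every control rat. Of the 8 of stellate cells and fibroblasts, 0 passed by rank products or limma, also at an unadjusted p under 0.05, with the largest differences in Lrat (0.14, standard error 0.09) and Col1a2 (0.11, standard error 0.11), and the list averaged -0.09 to 0.12 in HP rats and -0.15 to 0.10 in control rats. Of 4 of hepatocytes, 2 were lower by rank products, the urea cycle enzymes Cps1 (-0.27, standard error 0.06) and Ass1 (-0.24, standard error 0.05), with an adjusted p of 0.217 for each by limma. Cps1 and Ass1 also had an unadjusted p under 0.05 by limma, and in each every HP rat lay below every control rat. The hepatocyte list averaged -0.12 to -0.01 in HP rats and 0.04 to 0.11 in control rats, with 0.04 in control rat 1. Its other 2 measured genes, Apoa1 (0.02, standard error 0.06) and Apob (-0.03, standard error 0.03), did not pass. The separation of the list average thus rests mostly on Cps1 and Ass1 and is no measure of hepatocyte markers in general.

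Markers of blood cells were mostly almost constant. The 10 named markers of monocytes and neutrophils, S100a8, S100a9 and Ccr2 among them, the 4 of dendritic cells and the 5 of bile duct cells had no measured probe set. Of T, B and NK cells, 1 of 15 named markers was measured, the chemokine Ccl5 (0.10, standard error 0.08, adjusted p = 0.616 by limma), while Cd3e, Cd8a and Ms4a1 were almost constant. Of red blood cells, Hbb was measured, with log2 values of 11.61, 11.44, 11.39 and 11.38 in the HP rats and 11.09, 11.64, 11.08 and 11.04 in the control rats. Rank products called it higher (FDR 0.0291, adjusted p = 0.454 by limma), and control rat 1, highest for the Kupffer cell markers, was near the low end for Hbb.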

How the data were processed

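The authors quantified the CEL files of 8 arrays, 1 per rat, with FARMS in R (version 2.13.1 per the labels) and deposited 1 log2 value per probe set and array, the unit used throughout. How arrays were normalized to each other is not given in the sources used, no background or detection value was used, and every array had a median of 6.65. No normalization was added. Because FARMS leaves most probe sets almost constant, a small change may not be seen, and an almost constant value does not show that a gene was unchanged.

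Rank products (16 differences between an HP and a control array, 1000 permutations of the values within each array, FDR under 0.05) follow the methods of the study and covered all 31042 probe sets and 57 control probe sets (numpy 2.4.6 in Python 3.11.15). Limma 3.58.1 (R 4.3.3, eBayes with trend and robust estimation, Benjamini-Hochberg adjusted p, two-sided) was fitted over the 4155 probe sets that span at least 0.05, control probe sets left out. Standard errors, adjusted p-values and 95% intervals are from that fit. Both methods were tested on simulated data, where both recovered changed probe sets and rank products, but not limma, made more false calls than changed ones. The simulated differences were larger than that of any marker, so that recovery of differences as small as those of the markers was not tested. A gene with several probe sets is given at its brightest measured one. Figures were drawn with matplotlib 3.10.9 and tables made with pandas 2.3.3 and scipy 1.17.1.

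The members, 15 other gene lists, tests and alternatives were chosen with earlier results of these data known. The genes named are the members, the list genes that rank products called (otherwise the 2 with the largest difference) and the 5 most like the mean of the measured members. Genes named as almost constant or without a probe set, the list genes given for their r with the markers, Lyz2, Mrc1, C4bpa, Apoa1 and Apob were named after their values were seen. Probe sets were named from the platform annotation and promoters from RefSeq (GRCr8). No probe set was placed on the genome.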

Additional observations from a re-analysis of the deposited data

How the results depend on the processing

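The count of markers called lower by rank products, 1, became 0 when only the probe sets that span at least 0.05 were ranked. It ran from 0 to 2 with 1 rat left out, with 0 without control rat 2 and 2 (Cd5l and Cd163) without HP rat 2. It was 1 without the dimmest 25% of probe sets, after centring or quantile normalization and over any measured probe set of a gene. The counts of 0 higher by rank products and 0 by limma held under all alternatives run, with the smallest adjusted p of a marker by limma from 0.131 (array weights) to 0.525 (no span filter). The median difference of the measured markers, -0.15, ran from -0.20 to -0.09 with 1 rat left out and from -0.15 to -0.12 under the other settings. The difference of Clec4f was 0.03 with array weights and from -0.13 to 0.03 with 1 rat left out, and that of C1qa was 0.01 with array weights and from -0.10 to 0.02 with 1 rat left out. The other 5 markers kept their direction. With 1 rat left out, Cd163 ran from -0.29 to -0.11, Csf1r from -0.23 to -0.09, Cd68 from -0.20 to -0.09, C1qc from -0.14 to -0.04 and Cd5l from -0.40 to -0.28, each nearest 0 without control rat 1 or, for Cd5l, HP rat 4. With array weights they were -0.10, -0.07, -0.07, -0.04 and -0.31 in that order. The count of 17 pairs that passed by r ran from 2 to 19 with 1 rat left out (2 when this was control rat 1), alternatives chosen after seeing the data, and was 15 after centring. The cause of these shifts was not tested. With the replicate number as a replicate block, 0 markers passed (smallest adjusted p = 0.310) and the median difference was -0.15. The numbers only name the rats, and the deviations of rats with the same number had an r of 0.479, 0.0308, -0.123 and -0.197. No value of a marker stood apart from the other 3 rats of its diet by Dixon's criterion (14 groups of 4).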
